A study of Bos taurus with 8 samples.

Results

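The 4 striated muscle miRNAs bta-miR-1, bta-miR-133a, bta-miR-133b and bta-miR-206 were followed in small RNA libraries of rumen fluid. They were taken by name from the count tables, which together listed 565 miRNA entries, and 2 of them (bta-miR-1 and bta-miR-133a) were among the 377 entries that reached 10 reads in at least 1 library. The libraries came from 4 non-lactating, ruminally cannulated Holstein cows, each sampled on a forage diet (100% forage) and again on a high-grain (HG) diet with 65% concentrate, which gave 4 libraries per diet. Equal numbers in the labels were read as 1 cow on both diets, which the data do not show. Every cow received forage first, so diet and order of sampling cannot be told apart. Free fluid of the ventral sac was sampled, which holds no defined cell population, and fewer cells of a type and less RNA per cell cannot be told apart in it.

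These miRNAs are encoded in pairs on shared primary transcripts, miR-1 with miR-133a and miR-206 with miR-133b. MiR-1 is known to favour muscle differentiation and miR-133 to support the proliferation of muscle precursors, in part by repressing serum response factor. MiR-1 and miR-133a are made in both skeletal muscle and heart and are also known from smooth muscle, whereas miR-206 and miR-133b are known chiefly from skeletal muscle. MiR-1 and miR-206 share their seed, the stretch near the 5′ end that selects targets, and miR-133a and miR-133b differ at their 3′ end alone.

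On the bovine genome UMD3.1 the tables placed bta-miR-1 at chr13:55237592-55237613 (minus strand) in 4 libraries and at chr24:34841148-34841169 (plus strand) in the other 4. Bta-miR-133a was placed at chr13:55227350-55227371 (minus strand) in 3 libraries and at chr24:34844466-34844487 (plus strand) in 5. Bta-miR-206 lay at chr23:24308094-24308115 and bta-miR-133b at chr23:24312377-24312398, both on the plus strand. Each of these mature sequences spans 22 nt. Between the paired mature sequences lay 10220 bases on chromosome 13, 3296 on chromosome 24 and 4261 on chromosome 23. In the RefSeq gene table of another assembly (ARS-UCD2.0), used for neighbours alone, MIR1-2 and MIR133A-2 lie inside MIB1 and LOC113633884. MIR1-1 and MIR133A-1 lie inside LOC132346930, with GATA5 next to MIR1-1. MIR206 and MIR133B lie inside LOC132343629, with IL17A next to MIR133B. A table gives 1 position per entry, so these reads do not show which of the copies on chromosomes 13 and 24 was expressed.

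The levels of the 4 miRNAs differed by several orders of magnitude. Over the 8 libraries bta-miR-1 had 20374 reads, bta-miR-133a 581, bta-miR-206 23 and bta-miR-133b 2. By total reads they ranked 32, 140, 285 and 358 among the 399 bovine entries. The members are all of the same length, although ligation and amplification can favour one sequence over another. Depth was 300116 to 522804 miRNA reads per library, and levels are given per 1000000 miRNA reads of the same library (RPM of miRNA reads). The intervals given are 95% Wilson intervals and cover counting error alone, since amplified reads are not independent molecules.

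**Figure D1:**
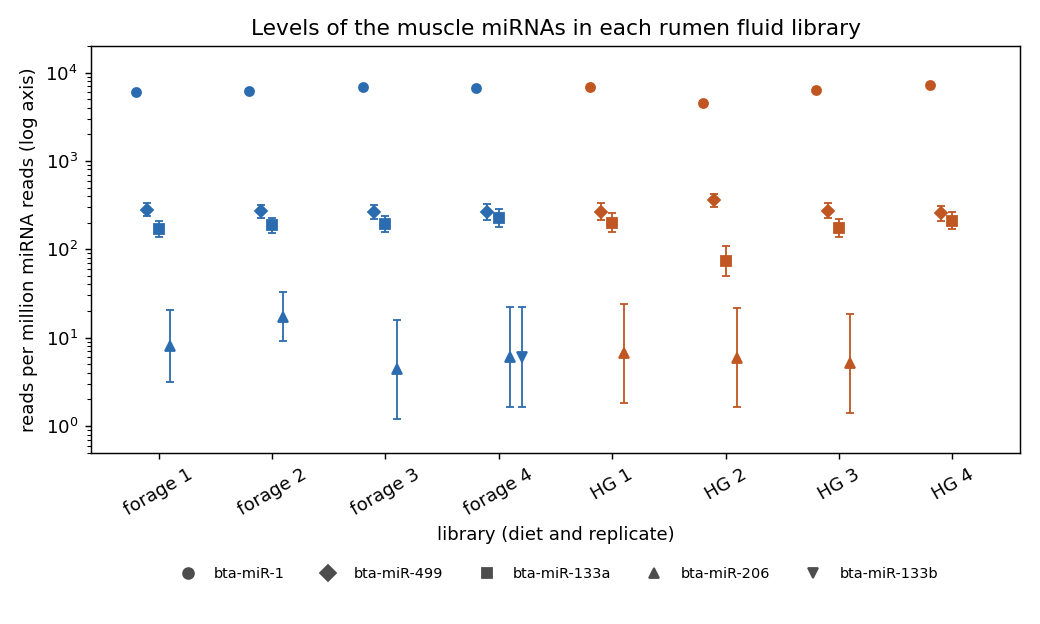
Level of each muscle miRNA in each library, in RPM of miRNA reads on a log axis. Points are single libraries (blue forage, orange HG) and bars are 95% Wilson intervals. Bta-miR-1 lies between 4569 and 7150, bta-miR-499 and bta-miR-133a lie between 74.4 and 357, and bta-miR-206 between 4.39 and 17.2, with no point where an entry was not listed.

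Bta-miR-1, the most abundant of the set, was present in all libraries at similar levels on both diets. In forage replicates 1 to 4 it had 5984, 6228, 6817 and 6665 RPM of miRNA reads. In HG replicates 1 to 4 it had 6794, 4569, 6372 and 7150 RPM. The ranges of the 2 diets overlapped, and HG replicate 2 held both the lowest level and the lowest number of reads (1536, against 2039 to 3256 elsewhere). The 4 forage libraries averaged 6424 ± 385 RPM (SD, n = 4) and the 4 HG libraries 6221 ± 1146 RPM (SD, n = 4), that is 0.642% ± 0.0385 and 0.622% ± 0.115 of the miRNA reads. Without HG replicate 2 the HG mean was 6772 ± 390 RPM (SD, n = 3). Bta-miR-1 ranked 31 to 33 among the bovine entries in 7 libraries and 39 in HG replicate 2.

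Among bovine entries of similar read number, bta-miR-101 (23298 reads) and bta-let-7b (22419) ranked just above bta-miR-1, and bta-miR-10174-3p (19939) and bta-miR-22-3p (19384) just below. On the forage diet these 4 had means of 7357 ± 115, 6882 ± 135, 5932 ± 43.3 and 6015 ± 79.8 RPM (SD, n = 4), respectively. Bta-miR-1 thus had the widest spread of the 5 on that diet. The coefficient of variation of bta-miR-1 over the 7 libraries other than HG replicate 2 was 6.07%, which takes in differences between cows and diets, beside 1.95% for counting error alone at its read numbers.

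Bta-miR-133a, the partner of bta-miR-1 on the same transcripts, was present in all libraries at a much lower level. Forage replicates 1 to 4 held 84, 98, 89 and 75 reads, or 170, 187, 195 and 226 RPM of miRNA reads. HG replicates 1 to 4 held 60, 25, 68 and 82 reads, or 200, 74.4, 174 and 211 RPM. The diets overlapped again, and HG replicate 2 lay below every other library, with an interval (50.4 to 110 RPM) that ended under the lowest bound of the other 7 (137 RPM). The forage mean was 195 ± 23.4 RPM (SD, n = 4) and the HG mean 165 ± 62.3 RPM (SD, n = 4), or 195 ± 19.1 RPM (SD, n = 3) without HG replicate 2. Over the 7 other libraries the coefficient of variation was 10.2%, no larger than the 11.4% that counting error gives at 60 to 98 reads. At this depth no difference in bta-miR-133a among the libraries outside HG replicate 2 stood out from counting error. Its neighbours by total reads, bta-miR-3613a (598), bta-miR-181b (592), bta-miR-2478 (571) and bta-miR-487b (565), had forage means of 165 to 178 RPM with SDs of 10.4 to 25.8 (n = 4).

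Bta-miR-206, the skeletal muscle relative of bta-miR-1, stayed near the lowest value that the tables list. It had 4, 9, 2 and 2 reads in forage replicates 1 to 4 and 2 reads each in HG replicates 1, 2 and 3, and it was not listed in HG replicate 4. The highest level was 17.2 RPM of miRNA reads in forage replicate 2 (95% interval 9.06 to 32.7), and the others lay between 4.39 and 8.09 RPM with intervals that overlapped it. In every listed value of every library the reads numbered at least 2 for each distinct sequence (3535 of 3535 values), as would follow if sequences read once were left out of the tables. An entry that is not listed may have had single reads, and no upper limit is given for it. In 6 of its 7 libraries bta-miR-206 rested on 1 distinct sequence, and in forage replicate 2 on 2. With so few reads no fold between the diets is given.

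Bta-miR-133b, which shares its transcript with bta-miR-206, was listed in forage replicate 4 alone, with 2 reads of 1 sequence. Beside the read counts the tables give divided reads, to which a read assigned to several places is taken to add the matching fraction. The 2 reads of bta-miR-133b were divided by 5 and came to 0.4. Bta-miR-133a had 75 reads and 24.73 divided reads in that library, whereas in the other 7 its divided reads were its reads over 3. If 73 of the 75 reads are divided by 3 and 2 by 5, the sum is 24.73, as deposited. The values thus fit the 2 reads listed as bta-miR-133b being counted as bta-miR-133a as well.

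The same arithmetic was applied to bta-miR-1 and bta-miR-206, whose shared seed raised the question of shared reads. The divided reads of bta-miR-1 were its reads over 6 in 8 of 8 libraries, within 0.01 reads. Those of bta-miR-206 were its reads over 2 in 7 of 7 libraries. A read counted at both would carry the same divisor at both, and a single read of bta-miR-1 divided by 7 in place of 6 would have moved its divided sum by 0.0238. If the divisor is the number of places a read was assigned to, which was read from the values, no listed read was shared by bta-miR-1 and bta-miR-206. The human homologue entries hsa-miR-1-3p and hsa-miR-133a-3p held the same reads as bta-miR-1 and bta-miR-133a in all 8 libraries, and hsa-miR-133a-5p, the other arm of that hairpin, was listed with 2 reads in forage replicate 3.

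The division weighs on the comparison between the members. Of the 377 entries, 33.2% were not divided at all and 2.12% were divided by 6 or more, as was bta-miR-1. By divided reads bta-miR-1 had 3396 reads and ranked 67 among the bovine entries in place of 32, and bta-miR-133a had 193 and ranked 162.

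Behind the reads of bta-miR-1 stood 32, 38, 42 and 31 distinct sequences in forage replicates 1 to 4 and 27, 18, 34 and 33 in HG replicates 1 to 4. For bta-miR-133a there were 12, 12, 9 and 12 on the forage diet and 10, 4, 12 and 11 on the HG diet. HG replicate 2 had the lowest number for both, along with their lowest reads. A distinct sequence of bta-miR-1 was read 71.4 to 92.4 times on average, and one of bta-miR-133a 5.67 to 9.89 times. The number of distinct sequences rises with depth, so these values describe the libraries and were not compared between diets.

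The ratio of the transcript partners does not depend on how libraries are scaled. On the forage diet there were 35.2, 33.2, 34.9 and 29.5 reads of bta-miR-1 per read of bta-miR-133a in replicates 1 to 4. On the HG diet there were 34.0, 61.4, 36.6 and 33.8. In 7 of the 8 libraries the ratio thus lay between 29.5 and 36.6, and in HG replicate 2 it was higher. By divided reads the ratio lay between 14.9 and 18.3 in these 7 libraries and was 30.7 in HG replicate 2. Bta-miR-133a made up 1.60% of the reads of both miRNAs in HG replicate 2 (95% interval 1.09% to 2.35%) and 2.66% to 3.28% in the others. Its interval overlapped those of 5 of the other libraries and lay below those of forage replicates 2 and 4. The mean log2 ratio of bta-miR-133a to bta-miR-1 was -5.05 ± 0.12 (SD, n = 4) in the forage libraries and -5.33 ± 0.41 (SD, n = 4) in the HG libraries, or -5.12 without HG replicate 2.

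**Figure D2:**
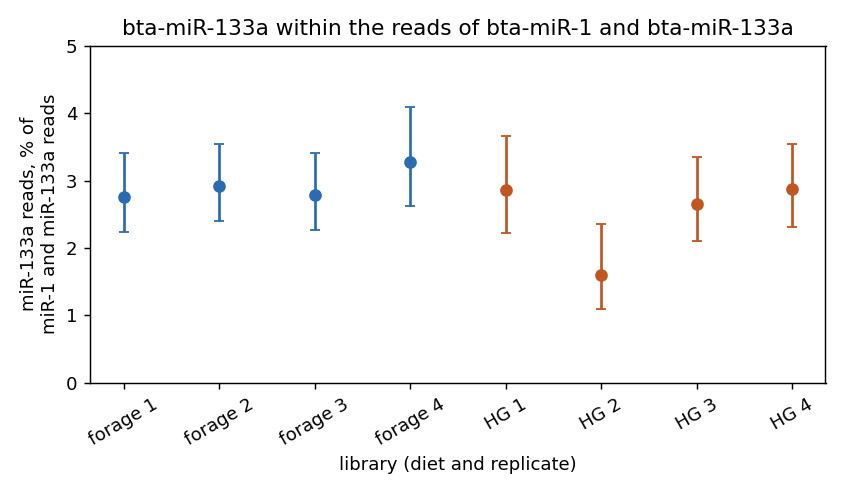
Reads of bta-miR-133a as a percentage of the reads of bta-miR-1 and bta-miR-133a together, in each library (blue forage, orange HG). Bars are 95% Wilson intervals. HG replicate 2 stands at 1.60% and the other 7 libraries lie between 2.66% and 3.28%.

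The effect of the shift from forage to HG feeding was tested over all 377 entries by edgeR's quasi-likelihood fit in which cow was a blocking factor. At a Benjamini-Hochberg adjusted p under 0.05, 0 entries were called (0%), 9 (2.39%) had an unadjusted p under 0.05, and DESeq2 also called 0. For 59 entries (15.6%) all 4 pairs shared 1 direction of the RPM difference, and neither bta-miR-1 nor bta-miR-133a was among them. The change of bta-miR-1 was -0.01 on the log2 scale (standard error 0.08, edgeR adjusted p = 0.936), and it was higher on the HG diet in 2 of 4 pairs of same-numbered libraries. A range of 2 standard errors around it reached from -0.18 to 0.15. Within these pairs, the log2 ratio of its RPM on the HG diet to that on the forage diet was 0.18, -0.45, -0.10 and 0.10 for numbers 1 to 4. Its direction changed without replicate 2 (0.06) and without replicate 3 (0.01).

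For bta-miR-133a the fitted change was -0.26 on the log2 scale (standard error 0.23, edgeR adjusted p = 0.791), with a range of 2 standard errors from -0.73 to 0.21. The values per pair were 0.23, -1.33, -0.17 and -0.10, so that 3 of 4 pairs had less of it with HG feeding. Pair 2, which holds HG replicate 2, had the lowest value, and without replicate 2 the fitted change was -0.02 (standard error 0.13). Neither member differed between the diets by more than the spread between libraries. These tests miss small differences, and the intervals leave room for a change of bta-miR-133a of either sign.

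**Figure D3:**
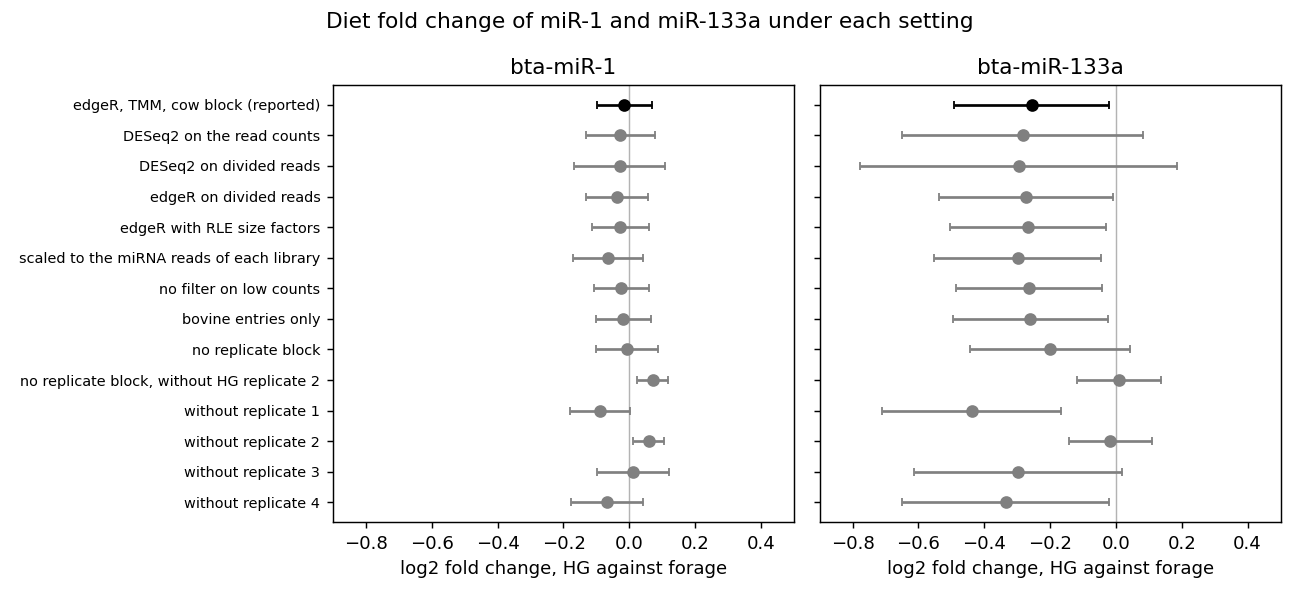
Log2 fold change of bta-miR-1 and bta-miR-133a on the HG against the forage diet in the reported fit (black) and in each alternative (grey). Bars are 1 standard error. The values of bta-miR-1 lie between -0.09 and 0.07 and those of bta-miR-133a between -0.44 and 0.01, with no adjusted p under 0.05 in any of them.

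The wider list of striated muscle miRNAs held 7 names, of which 5 were listed in rumen fluid and 3 were kept for the test. MiR-208a and miR-208b, which are encoded in cardiac myosin heavy chain genes, were listed in no library. Bta-miR-499 (chr13:64900493-64900513, plus strand, 21 nt), which is encoded inside the myosin gene MYH7B, had 892 reads, none of them divided. Its level was 279, 270, 263 and 262 RPM in forage replicates 1 to 4 and 267, 357, 274 and 255 RPM in HG replicates 1 to 4. HG replicate 2 was its highest library. It lay above bta-miR-133a in all 8 libraries, and the ranges of their levels did not overlap, although their 95% intervals did in single libraries such as forage replicate 4 (213 to 323 against 180 to 283 RPM). Its fitted change with diet was 0.14 (standard error 0.15, edgeR adjusted p = 0.830). Of the 3 kept entries of the list 0 were called, and the median change was -0.01, beside 0.03 over all 377 entries.

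HG replicate 2 stood apart from the other libraries in the muscle miRNAs as well as in the marker lists of other cell types. Bta-miR-1 was 1.46-fold and bta-miR-133a 2.62-fold lower there than the median of the other 7 libraries, while bta-miR-499 was 1.34-fold higher. Being lowest of the 8 libraries in HG replicate 2 was common, with 49.3% of the 377 entries, and 26.8% were highest there. These 377 entries, of which 268 were bovine, include human homologue entries with the same reads as a bovine one. Counts over all entries therefore hold some reads more than once. On the log2 scale bta-miR-1 was at -0.54 and bta-miR-133a at -1.39 in that library, beside a median of -0.23 over all entries, and 101 and 26 entries, respectively, lay further down. The same library therefore held less of both members of the miR-1 and miR-133a pair and more of the third muscle miRNA.

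The marker lists moved with it in both directions. Of the smooth muscle list (miR-143 and miR-145), 2 of 2 entries were highest in HG replicate 2, and their summed level was 83626 RPM against 59567 to 64597 in the other libraries. The other miR-145 arm, hsa-miR-145-3p, was not on the list. Its fitted diet change was -0.04 (standard error 0.08), beside 0.25 (standard error 0.22) for bta-miR-145. Of the squamous epithelium list 5 of 7 kept entries were highest there and 1 was lowest, with a sum of 31200 against 22054 to 22804 RPM. The erythroid list (3 of 3 entries lowest) had 149756 against 198457 to 206066 RPM, and the leukocyte list (3 of 4 lowest, 1 highest) 16980 against 21278 to 21848 RPM. The nervous tissue list, with the equal reads of bta-miR-124a and bta-miR-124b counted once, was lowest in 3 of 3 entries and had 5203 against 7173 to 8266 RPM, and miR-122, known from liver, 1562 against 2114 to 2662 RPM. No list had an entry called for the diet, and the part of these cell types in the levels of the muscle miRNAs was not tested.

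**Figure D4:**
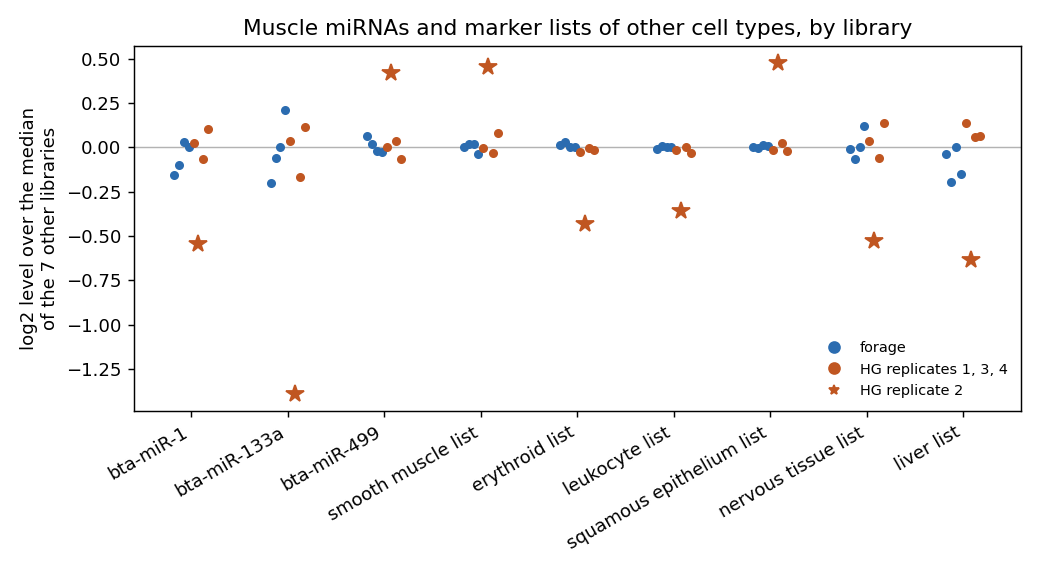
Level of 3 muscle miRNAs and summed level of 6 marker lists in each library, as the log2 ratio to the median of the 7 libraries other than HG replicate 2. Circles are these 7 libraries (blue forage, orange HG) and stars are HG replicate 2. In HG replicate 2 bta-miR-133a lies at -1.39 and bta-miR-1 at -0.54, with the erythroid, leukocyte, nervous tissue and liver lists below 0 and bta-miR-499, the smooth muscle and the squamous epithelium lists above 0.

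Across libraries, the log2 levels of bta-miR-1 and bta-miR-133a had a Pearson r of 0.903 over 8 libraries and 0.774 over 7 without HG replicate 2, among which the spread of bta-miR-133a was 0.899 times that of counting error. With bta-miR-499, r was -0.877 for bta-miR-1 and -0.980 for bta-miR-133a over 8 libraries, and -0.957 and -0.878 over 7. The libraries come in pairs from the same cows and share 1 scaling, so these values are descriptions. Over the 7 libraries bta-miR-499 itself varied 0.308 times as much as the 9.72% that counting error gives, so that its differences among them are within counting error.

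Among the other bovine entries kept, the 3 with the pattern most like bta-miR-1 over the 8 libraries were bta-miR-9-5p (r = 0.923), bta-miR-302b (0.909) and bta-miR-124a (0.904). Without HG replicate 2, r was 0.774, 0.751 and 0.774, and they then ranked 9, 13 and 7 of 266 entries. For bta-miR-133a the closest were bta-miR-124a and bta-miR-124b, which hold equal reads (r = 0.977), and bta-miR-142-5p (0.971), with 0.778, 0.778 and 0.683 without that library. In likeness to bta-miR-1, bta-miR-124b therefore tied with bta-miR-124a as well. All of these entries were lowest in HG replicate 2. This follows largely from their choice by r over libraries that include it, where both members were lowest, and 49.3% of the 377 entries were lowest there. Bta-miR-9-5p, a miRNA of nervous tissue, had 4156 RPM there against 5699 to 6589 RPM elsewhere, bta-miR-124a 634 against 956 to 1067 RPM, and bta-miR-142-5p, a leukocyte miRNA, 8481 against 11088 to 11490 RPM.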

How the data were processed

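Rumen fluid small RNA of 4 cows on 2 diets was sequenced as 8 libraries. The authors demultiplexed the reads with bcl2fastq (2.20), trimmed them with Skewer, discarded short and low-quality reads, and mapped the rest with sRNAbench and Bowtie, allowing 2 mismatches, to UMD3.1 with bovine and human miRBase entries. The deposited read count of an entry counts a read in full at each entry it maps to, and the deposited expected count is adjusted for multiple mapping, taken here as division among its places. The deposited RPM is relative to all reads and served to recover their number, about 1407364 to 4972762 per library, of which 6.67% to 29.3% were miRNA reads. A deposited score, RPM of miRNA reads, gave the number of miRNA reads. The deposited normalized table was not used here.

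The fits held the entries that reached 10 reads in 1 or more libraries, and unlisted entries entered the fits as 0. Diet was tested with edgeR 4.0.16 (TMM, glmQLFit and glmQLFTest, two-sided, R 4.3.3) on a model of cow plus diet, which the study's methods state, and Benjamini-Hochberg adjustment over all kept entries against 0.05. The test was tried on simulated data with large changes and no differences between cows, which does not show how it does with small changes. Standard errors were taken as the fold change over the root of F. DESeq2 1.42.0 was an alternative. Other steps used Python 3.11.15, numpy 2.4.6, pandas 2.3.3 and scipy 1.17.1. Libraries that carry the same number were paired, since the study sampled its cows on both diets and the labels number them alike. Their deviations from the diet means correlated at 0.0045, -0.064, 0.064 and 0.0061 across entries, which does not show the pairing. The members, the marker lists and the tests were chosen with earlier results of these data known. Named besides the members were their homologues, other arms and the striated muscle list, the 2 bovine entries next above and below each kept member by reads, and the 3 with the highest Pearson r of log2(TMM-normalized CPM + 1). MiR-1 and miR-133a are also known in smooth muscle, and miR-486 of the erythroid list in muscle. The squamous epithelium list had 8 names, of which miR-203 was not listed. Leaving out HG replicate 2 for shares and ratios, and HG replicate 3 for shares of all reads, was added after seeing the data. No sequence is printed, since no file used here holds one.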

Additional observations from a re-analysis of the deposited data

Results flagged for a closer look

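In a group of 4 libraries, a library whose gap to its nearest neighbour is above Dixon's critical share of the whole range was looked at again, which chance alone gives in about 1 group of 20. Of 13 groups of values tried, 2 met this. The log2 ratio of bta-miR-133a to bta-miR-1 was -5.94 in HG replicate 2, with a gap of 0.868 of the range of the HG diet, and it rests on 25 reads of bta-miR-133a. Forage replicate 3 had 9 distinct sequences of bta-miR-133a where the other forage libraries each had 12, so that the gap was the whole range.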

How the results depend on the processing

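The direction of the diet change of bta-miR-1 turned without replicate 2 (0.0588), without replicate 3 (0.0123) and without both the replicate block and HG replicate 2 (0.0715), and its values without 1 replicate ranged from -0.0901 to 0.0588. For bta-miR-133a the last of these fits gave 0.0097, and its values without 1 replicate ranged from -0.4376 to -0.0170. Without the replicate block the changes were -0.01 (bta-miR-1, edgeR adjusted p = 0.984) and -0.20 (bta-miR-133a, edgeR adjusted p = 0.805), and the block changed no call. All other settings kept both directions, and no setting gave an adjusted p under 0.05 for either. The number of called entries was 0 in every setting except without replicate 2, where it was 2 (0 to 2 without 1 replicate), namely bta-miR-2285ak-5p and bta-miR-2285bh, each listed in forage replicate 1 alone with 88 reads. Their counts were equal in every library, so they may be 1 set of reads counted at both entries. By divided reads the shares of miRNA reads on the forage and HG diets were 0.107% and 0.104% for bta-miR-1 and 0.00647% and 0.00550% for bta-miR-133a, and the log2 ratio was -4.05 and -4.33, since the reads were divided by 6 and by 3. Relative to all reads of the library the shares were 0.110% and 0.0859% for bta-miR-1, 0.00324% and 0.00231% for bta-miR-133a and 0.000159% for bta-miR-206 on the forage diet. The HG shares of all reads rest on HG replicate 3, and without it, a setting chosen after seeing the data, they were 0.0556% for bta-miR-1 and 0.00147% for bta-miR-133a. Forage replicate 1 likewise raised the forage shares, with 1754 RPM of all reads for bta-miR-1 against 445 to 1184 in the other forage libraries. The forage shares were not recomputed without it, so the HG shares without HG replicate 3 are not to be set against them. MiRNA reads made up 29.3% of all reads in forage replicate 1 and 27.8% in HG replicate 3, against 6.67% to 17.4% in the others. No mean share is given for bta-miR-206 on the HG diet, where it was not listed in 1 library, or for bta-miR-133b, and neither had a fit under the filter. Depth limits both of them, with at most 9 reads in a library.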
